A study of Mus musculus with 6 samples.

Results

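ESRRB regions that lie close together in naive mouse embryonic stem cells were examined as chains, and 1925 of the 13767 ESRRB regions called in 2iL (13.98%) belonged to a chain. They were selected on position in the 2iL peak list alone: neighbouring regions were joined when the gap between them was under a set limit, and chains of 3 or more were kept, which gave 549 chains. The largest gap joined in the 2iL list was 12.499 kb and the smallest not joined was 12.504 kb. A region is called later when a region in the 48 h or 96 h list overlaps it by at least 1 bp, and a fold is the authors' fold enrichment over local background at its strongest summit, given in the order 2iL, 48 h, 96 h where 3 values stand together. ESRRB binding had been mapped by ChIP-seq, which sequences DNA pulled down with an antibody, here a mouse monoclonal antibody to ESRRB, in E14 cells, a line derived from blastocysts. The 2iL cells grew in serum-free N2B27 medium with 3 µM CHIR99021, a GSK3 inhibitor, 1 µM PD0325901, a MEK inhibitor, and the cytokine LIF. The 48 h and 96 h cells had been plated in the same medium and then kept in N2B27 without CHIR99021, PD0325901 or LIF for 48 or 96 hours. Every condition was represented by 1 ESRRB library, without replicates, and the 3 input libraries were not used here. Of all 2iL regions 50.7% were called at 48 h, 35% at 96 h, 31.3% in both later lists and 45.6% in neither, and the counts of called chain regions stand against these shares. All values describe these 3 libraries, with no test, and the intervals of shares are exact Clopper-Pearson 95% intervals that cover counting error only. All intervals treat regions as independent. Neighbours in a chain had like calls more often than distant ones, so intervals for chain regions may be too narrow.

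ESRRB is an orphan nuclear receptor that binds DNA as a monomer or dimer at an extended half-site and acts with OCT4, SOX2 and NANOG in naive pluripotent cells. Enhancers that control cell identity often lie in clusters, in which several bound elements near one another act on the same gene. ESRRB supports self-renewal in 2iL and its own gene is switched off as cells leave the naive state.

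The chain at the Mir290a to Mir295 cluster held 6 regions (chromosome 7, 3201104 to 3223115) and overlapped Nlrp12, a gene for an innate immune receptor. This cluster encodes the most abundant microRNAs of mouse embryonic stem cells, which promote the short cell cycle of these cells. Of the 1072 microRNA genes with a hairpin or mature entry in the RefSeq table, 21 had one inside a chain span, in 11 chains, and 9 of these 21 belonged to this cluster (3218626 to 3220841). The mature sequences below, from RefSeq (GRCm38.p6), show what this chain flanks; capitals mark the seed, bases 2 to 8, which selects the target messenger RNAs. The first 3 share the seed AAGUGCU, and the other 2 differ from it only in the last seed base.
miR-291a-3p: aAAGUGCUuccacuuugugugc
miR-294-3p: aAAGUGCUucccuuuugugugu
miR-295-3p: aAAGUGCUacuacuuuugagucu
miR-290a-3p: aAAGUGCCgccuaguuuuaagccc
miR-291b-3p: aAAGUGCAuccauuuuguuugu

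Of the 6 regions at this cluster, 5 were called at both later times. The region just before the first hairpin (3217256 to 3218328) had folds of 12.4, 13.1 and 12.7. The region beyond the last hairpin (3221072 to 3223115) had folds of 7.28, 7.38 and 7.50. The second and the third region had 2iL folds of 12.4 and 11.5, and at 96 h a single region with a fold of 9.97 covered both. Only the first region, with a fold of 4.44 in 2iL, was called at neither later time. A second chain, of 3 regions, spanned the hairpins of Mir96 and Mir183 on chromosome 6 (30167173 to 30184123), which lie in a sensory-cell microRNA cluster. Its 2iL folds were 3.6, 5.0 and 7.62, the first 2 were called at 48 h with folds of 3.21 and 2.53, and none was called at 96 h.

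RefSeq promoter windows, from 250 bp before to 50 bp after a gene start, that met a chain region were searched for the ESRRB half-site AAGGTCA and for the extended site TCAAGGTCA, which contains it, on both strands. The half-site was in 14 of 234 windows met by chain regions (5.98%, 95% interval 3.31 to 9.83), in 155 of 1470 windows met by other 2iL regions (10.5%, 9.02 to 12.2) and in 4.72% of all 32851 windows. The extended site was in 2 of the 234 (0.855%), in 15 of the 1470 (1.02%) and in 0.423% of all windows. Windows of alternative starts can overlap and share a match. The 4 windows below are shown because each holds the half-site inside a chain region at a protein-coding gene (8 windows of 7 genes did; these were chosen after their values were seen), with the regions called in all 3 libraries in the first 3 and in 2iL alone in the last. They are RefSeq sequences (GRCm38.p6) on the strand of the gene, plus for the first 3 and minus for Coq10a, and capitals mark the half-site in either orientation.
Ankrd45, chr1:161142447-161142746: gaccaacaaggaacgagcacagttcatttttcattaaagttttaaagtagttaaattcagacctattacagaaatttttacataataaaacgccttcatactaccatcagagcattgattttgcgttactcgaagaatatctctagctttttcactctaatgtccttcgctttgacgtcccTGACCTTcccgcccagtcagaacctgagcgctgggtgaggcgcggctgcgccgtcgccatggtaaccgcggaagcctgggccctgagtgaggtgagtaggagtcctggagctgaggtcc
Eno1, chr4:150236458-150236757: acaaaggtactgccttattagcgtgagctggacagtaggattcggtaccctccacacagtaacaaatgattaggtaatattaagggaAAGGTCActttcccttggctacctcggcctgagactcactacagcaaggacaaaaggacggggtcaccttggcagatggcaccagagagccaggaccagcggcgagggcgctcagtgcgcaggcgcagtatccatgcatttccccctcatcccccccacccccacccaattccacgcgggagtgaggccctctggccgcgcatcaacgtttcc
Sgk1, chr10:21978422-21978721: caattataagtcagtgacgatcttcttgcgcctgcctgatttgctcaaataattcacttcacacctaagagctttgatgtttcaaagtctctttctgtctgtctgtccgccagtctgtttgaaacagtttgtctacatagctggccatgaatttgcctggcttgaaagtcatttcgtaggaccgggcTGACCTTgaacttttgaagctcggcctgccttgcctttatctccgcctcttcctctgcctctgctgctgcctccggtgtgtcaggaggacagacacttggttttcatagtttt
Coq10a, chr10:128369988-128370287: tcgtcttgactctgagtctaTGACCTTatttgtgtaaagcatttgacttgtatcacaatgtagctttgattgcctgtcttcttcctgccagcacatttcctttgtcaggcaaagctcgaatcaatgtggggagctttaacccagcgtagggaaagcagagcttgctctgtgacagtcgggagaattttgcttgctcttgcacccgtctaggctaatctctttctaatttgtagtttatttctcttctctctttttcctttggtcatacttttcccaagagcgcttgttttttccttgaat

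The half-site of Ankrd45 lay 3 bp from the summit of its region, which had folds of 14.5, 5.65 and 6.26. That of Eno1, the gene of the glycolytic enzyme enolase, lay 149 bp from the summit of the strongest region of a chain of 6, with folds of 17.5, 14.1 and 15.6. In the Sgk1 window the half-site is part of the extended site and lay 35 bp from the strongest summit of a region with a 2iL fold of 5.88. At 48 h a single region with a fold of 9.20 covered this region and the next, and the fold at 96 h was 4.17. Sgk1 encodes a serum- and glucocorticoid-regulated kinase, and its chain held 4 regions, of which 3 were called at 48 h and 2 at 96 h. The Coq10a region, at a gene for a coenzyme Q binding protein, had a fold of 6.22 in 2iL, and its half-site lay 66 bp from the summit. A match shows only that these letters are in the window.

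Most chains were small. Of the 549 chains, 360 held exactly 3 regions, 128 held 4, 39 held 5, 18 held 6, 3 held 7 and 1 held 9. The median chain spanned 15.0 kb (quartiles 11.0 and 20.6 kb), the shortest 1.97 kb and the longest 45.1 kb, and together the chains covered 9.0 Mb of the mm10 genome. Called regions filled a median of 26.2% of the span. The 1376 gaps inside chains had a median of 4178 bp and ran from 52 to 12470 bp, and 280 of them (20.3%) were under 1 kb. Gaps close to the limit were common on both sides, with 73 gaps in the 0.5 kb below it and 56 in the 0.5 kb above it in the whole 2iL list. The chain boundaries follow the chosen distance and not a break in the data.

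**Figure D1:**
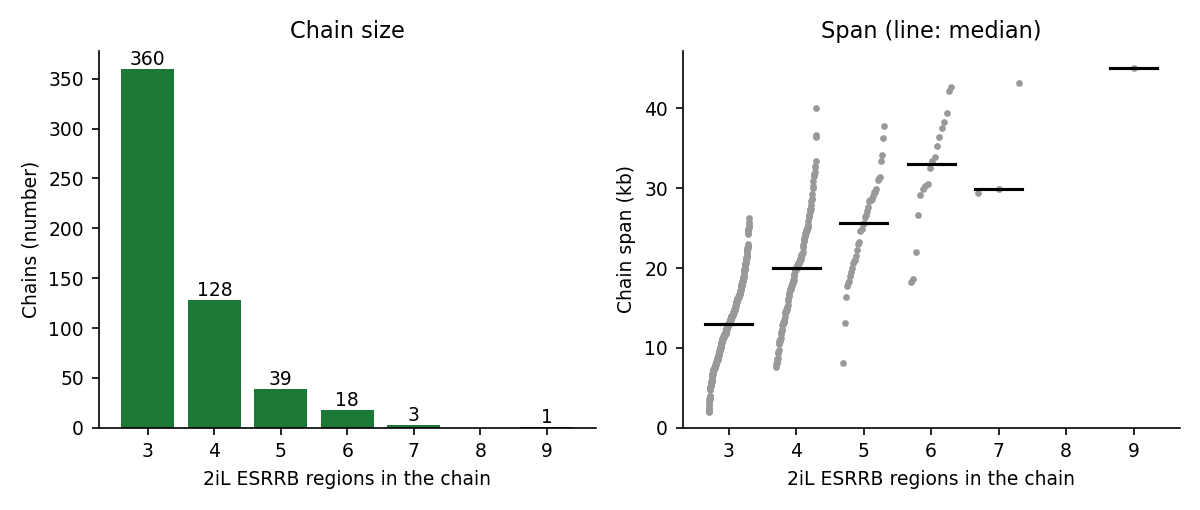
Number of chains by the number of 2iL ESRRB regions they hold (left) and the span of each chain in kb (right; each point is 1 chain, the line is the median of that size). Chains of 3 make up 360 of 549, and the single chain of 9 regions is also the longest, at 45.1 kb.

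Chains were spread over 20 chromosomes in uneven shares. On chromosome 11, 198 of 1037 regions (19.1%) lay in chains, and on chromosome 4, 174 of 949 (18.3%). The lowest shares were on the X chromosome, with 10 of 207 (4.83%), and on chromosome 13, with 44 of 660 (6.67%). Chain regions had a similar fold enrichment to other regions, with a median of 5.87 (quartiles 4.61 and 8.32) against 5.88 (4.66 and 7.97). They were wider, with a median of 1109 bp against 977 bp, and 48.6% held more than 1 summit against 39.1% of the regions outside chains. Fold, width and summits come from the list that chose the members and are given as a description.

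The largest chain, with 9 regions, lay 22.8 kb from Sik1, a salt-inducible kinase gene (chromosome 17, 31776429 to 31821493). Its regions had 2iL folds of 4.21 to 12.7. The fifth and the sixth, with a gap of 55 bp, had 2iL folds of 8.88 and 8.28, and in each later list a single region covered both, with a fold of 17.3 at 48 h and of 12.8 at 96 h. The eighth region had the highest 2iL fold of the chain, 12.7, and was called at neither later time, as were the first 2, with folds of 6.42 and 8.22. The last region had folds of 7.92, 6.98 and 8.72. In this chain 5 of 9 regions were called at 48 h, 5 at 96 h and 4 at both, and those called at both were among its last 5.

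Chains lay mostly in or beside genes. Of the 549 chains, 361 (65.8%) overlapped a protein-coding gene, 144 (26.2%) lay entirely inside 1 gene, 65 overlapped at least 2 genes, and 43 (7.83%) were more than 50 kb from any. Other spans of like length were not compared here, so these shares are not shown to be particular to chains. A region overlapped a promoter window in 153 chains (27.9%). Of all chain regions 9.04% (95% interval 7.80 to 10.4) did so, and of the regions outside chains 9.52% (8.99 to 10.1). These promoter regions had a median 2iL fold of 5.26, against 5.96 for chain regions away from promoter windows. There were 12 genes that held regions of 2 chains each, among them Esrrb, Grhl3, Ccnd3, Arid5b, Macf1 and Iqgap1.

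After 2iL withdrawal, regions in chains were called at shares a few points above those of all 2iL regions, and this difference did not hold among regions of like width or under a stricter overlap, as given below. At 48 h, 1054 of 1925 chain regions (54.8%, 95% interval 52.5 to 57.0) overlapped a called region by at least 1 bp, against 50.7% of all 2iL regions and 50.1% (49.1 to 51.0) of those outside chains. At 96 h, 736 (38.2%, 36.1 to 40.4) did, against 35% of all and 34.5% (33.6 to 35.4) outside chains. Both later times had called 670 chain regions (34.8%), against 31.3% of all 2iL regions, and neither had called 805 (41.8%), against 45.6%. A further 384 were called at 48 h only and 66 at 96 h only. Absence from a list does not show absence of binding, and the files give no read totals with which to compare depth.

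Larger chains as a class held more called regions, though not in every size. Single regions were called at 48 h in 50.2% of cases and regions in pairs in 49.5%. In chains of 3 the share was 52.6% (95% interval 49.6 to 55.6), in chains of 4 it was 56.4% (52.0 to 60.8), and in chains of 5 or more it was 59.2% (53.7 to 64.5). At 96 h the same classes gave 34.2%, 35.5%, 36.5%, 38.7% and 43.2% (37.9 to 48.8). Neighbouring classes in this order overlapped in their intervals, and chains of exactly 5 had 52.8% called at 48 h against 68.5% in chains of 6. Median widths of the classes were 960, 1018, 1092, 1081 and 1244 bp, and regions of like width are compared next.

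Calls differed far more with the strength of a region in 2iL than with chain membership. In the weakest quintile of 2iL regions by fold, 32.0% of chain regions and 30.0% of other regions were called at 48 h, and in the strongest quintile, with folds of at least 8.71, 83.5% (95% interval 79.6 to 86.9) and 76.4% (74.6 to 78.1). At 96 h the strongest quintile gave 68.2% (63.5 to 72.6) and 61.1% (59.1 to 63.1). The share was higher for chain regions in 5 of 5 quintiles at both times, and the difference averaged over quintiles was 4.38 percentage points at 48 h (2.11 to 6.64, a normal approximation) and 3.22 at 96 h (1.03 to 5.41). Among regions of like width, in quintiles of width in place of fold, the difference was 1.07 points at 48 h (-1.28 to 3.43) and 0.159 at 96 h (-2.05 to 2.37). When 50% of each region had to overlap it was 1.88 and 0.439 points, and both intervals reached 0. Neither comparison leaves a difference between chain regions and the rest beyond counting error.

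**Figure D2:**
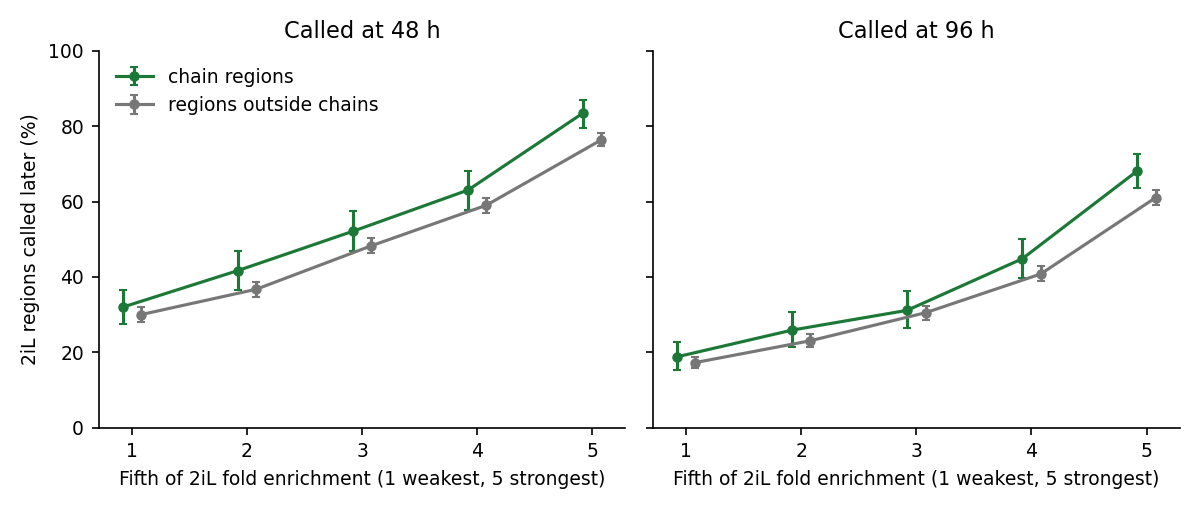
Percent of 2iL regions called at 48 h (left) and 96 h (right) in each quintile of 2iL fold enrichment, for chain regions (green) and regions outside chains (grey), with exact 95% binomial intervals. The green points lie above the grey in every quintile, most in the strongest, at 83.5% against 76.4% at 48 h.

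Most chains were neither called whole nor wholly uncalled later. Only 28 of 549 chains (5.10%, 95% interval 3.42 to 7.29) had every region called at both later times, and 57 (10.4%, 7.96 to 13.2) had no region called at either. At 48 h, 392 chains (71.4%) had some regions called and others not, 93 had all and 64 had none. At 96 h, 39 had all and 143 had none. Neighbouring regions had unlike calls at 48 h in 589 of 1376 pairs inside chains and in 3653 of 7549 pairs over 50 kb apart. Mixed calls are therefore not shown to be particular to chains. The counts expected from the share of called regions alone were not computed. At least 3 regions were called in 157 chains at 48 h (28.6%, 24.9 to 32.6) and in 87 at 96 h (15.8%, 12.9 to 19.2), and among the 61 chains of 5 or more in 37 and 27. A chain of 3 reaches this only with all its regions called, so these counts do not compare chains of different size. From 48 h to 96 h the number of called regions was lower in 271 chains, the same in 239 and higher in 39.

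**Figure D3:**
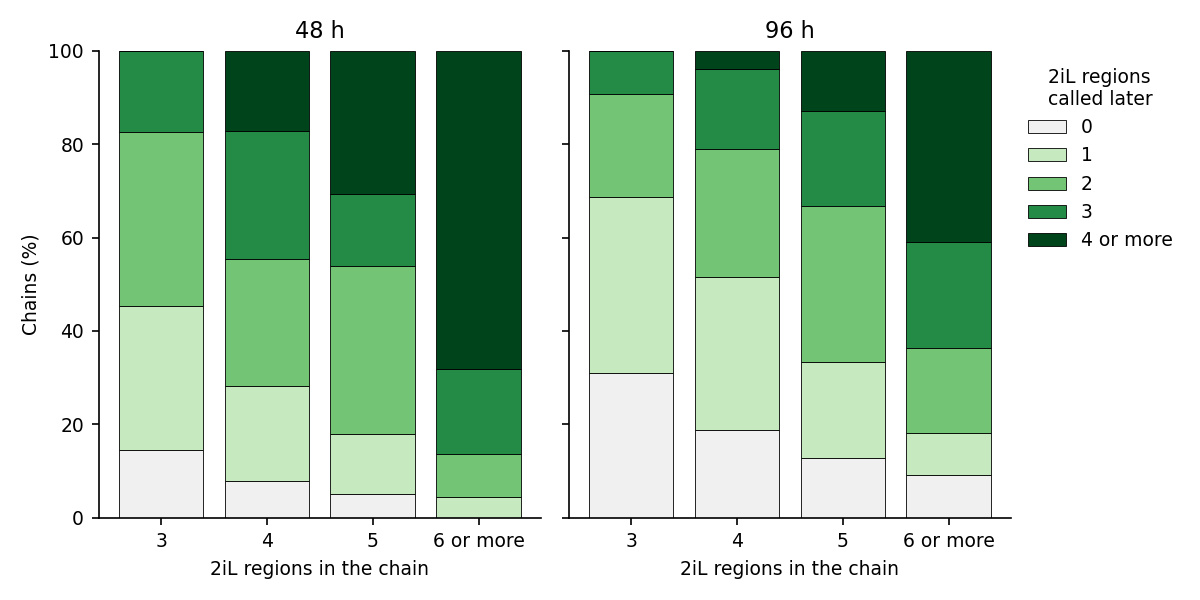
Percent of chains by how many of their 2iL regions were called at 48 h (left) and at 96 h (right), for chains of 3, 4, 5 and 6 or more regions (360, 128, 39 and 22 chains). Among chains of 3, 14.4% had no region called at 48 h and 31.1% none at 96 h, and among chains of 6 or more 68.2% had 4 or more called at 48 h.

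Within a chain, the strongest region was the one most often called later. The strongest regions had a median 2iL fold of 9.47, and the share called was 67.8% (95% interval 63.7 to 71.7) at 48 h and 54.6% (50.4 to 58.9) at 96 h. The weakest regions of the same chains, with a median fold of 4.29, were called in 39.2% and 21.9% of cases. Where at least 2 regions of a chain were called, the called regions alone were ranked by fold. At 48 h the called region of highest 2iL fold also had the highest later fold in 232 of 342 chains (67.8%). At 96 h this held in 148 of 219 (67.6%). Regions covered by 1 later region share its fold, and such ties were settled by taking the first by position. In chains, 48 neighbouring pairs at 48 h and 25 at 96 h were covered in this way. The strongest 2iL region of a chain could be uncalled, and with few regions to rank some matches come by chance. Regions at the ends of a chain and those inside it did not differ beyond their intervals: at 48 h 54.2% (51.2 to 57.2) of outer and 55.5% (52.0 to 58.9) of inner regions were called.

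Neighbours in a chain under 1 kb apart had like calls more often than those further apart, in part because 1 later region could cover both. Of regions whose neighbour lay under 1 kb away, 68% were called at 48 h when that neighbour was called and 36.9% when it was not. For gaps of 1 to 5 kb the shares were 61.6% and 47.5%, from 5 kb to the limit they were 57.5% and 52.7%, and for neighbouring 2iL regions over 50 kb apart 51.6% and 48.4%. In 47 of the 280 nearest pairs, 1 region at 48 h covered both 2iL regions, which makes their calls alike by construction, and at 96 h this held for 25. With those left out, the nearest regions were called at 48 h in 53.4% of cases when the neighbour was called, below the 61.5% for gaps of 1 to 5 kb. Both regions were then called in 55 of 233 nearest pairs (23.6%), in 166 of 489 pairs 1 to 5 kb apart (33.9%) and in 193 of 606 pairs from 5 kb to the limit (31.8%). Neither was called in 35.2%, 23.5% and 21.1% of these pairs, so the alike calls of the nearest pairs that remained, 58.8% of them, were mostly absences. Leaving such pairs out removes only pairs called together, and the order by distance depends on how they are counted. At 96 h the nearest pairs without them were both called in 14.9% and both uncalled in 48.2%, against 16.3% and 39.9% from 5 kb to the limit. Neighbouring regions were not matched on fold.

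**Figure D4:**
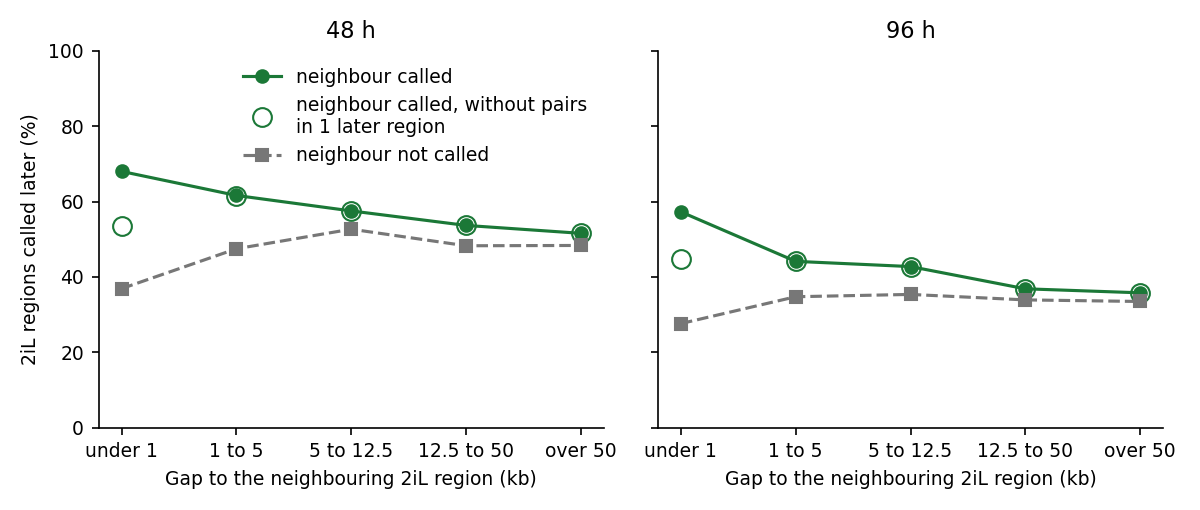
Percent of 2iL regions called at 48 h (left) and 96 h (right) when the neighbouring 2iL region was called (filled green circles) or was not (grey squares), by the gap in kb between the regions; gaps up to the limit are those inside chains. Open circles leave out pairs covered by 1 later region, and at 48 h they fall from 68% to 53.4% for gaps under 1 kb.

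The Esrrb gene held 2 chains with opposite outcomes. The chain of 5 (chromosome 12, 86454788 to 86479475) had 2iL folds of 7.03, 4.98, 5.07, 5.04 and 3.66, and none of its regions was called at 48 h or 96 h. The chain of 3 in the same gene (86498246 to 86505046) had all its regions called at both times. Its first region had folds of 5.57, 7.81 and 5.03, so a 2iL fold inside the range of the uncalled chain went with a later call here. The second had folds of 17.9, 17.8 and 19.9, and the third, after a gap of 131 bp, 17.0, 4.10 and 4.07. The strongest summit of each of the 8 regions lay inside the gene.

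A chain of 4 regions lay 92.4 kb from Sox2, which encodes a core pluripotency factor whose distal enhancer cluster is known in these cells (chromosome 3, 34744895 to 34765496). Its second region had folds of 27.3, 19.5 and 24.3, and the third 14.3, 17.7 and 18.8. All 4 regions were called at 48 h and 3 at 96 h. The first, with a fold of 5.24 in 2iL, was missing at 96 h. Sox2 had no chain within 50 kb.

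**Figure D5:**
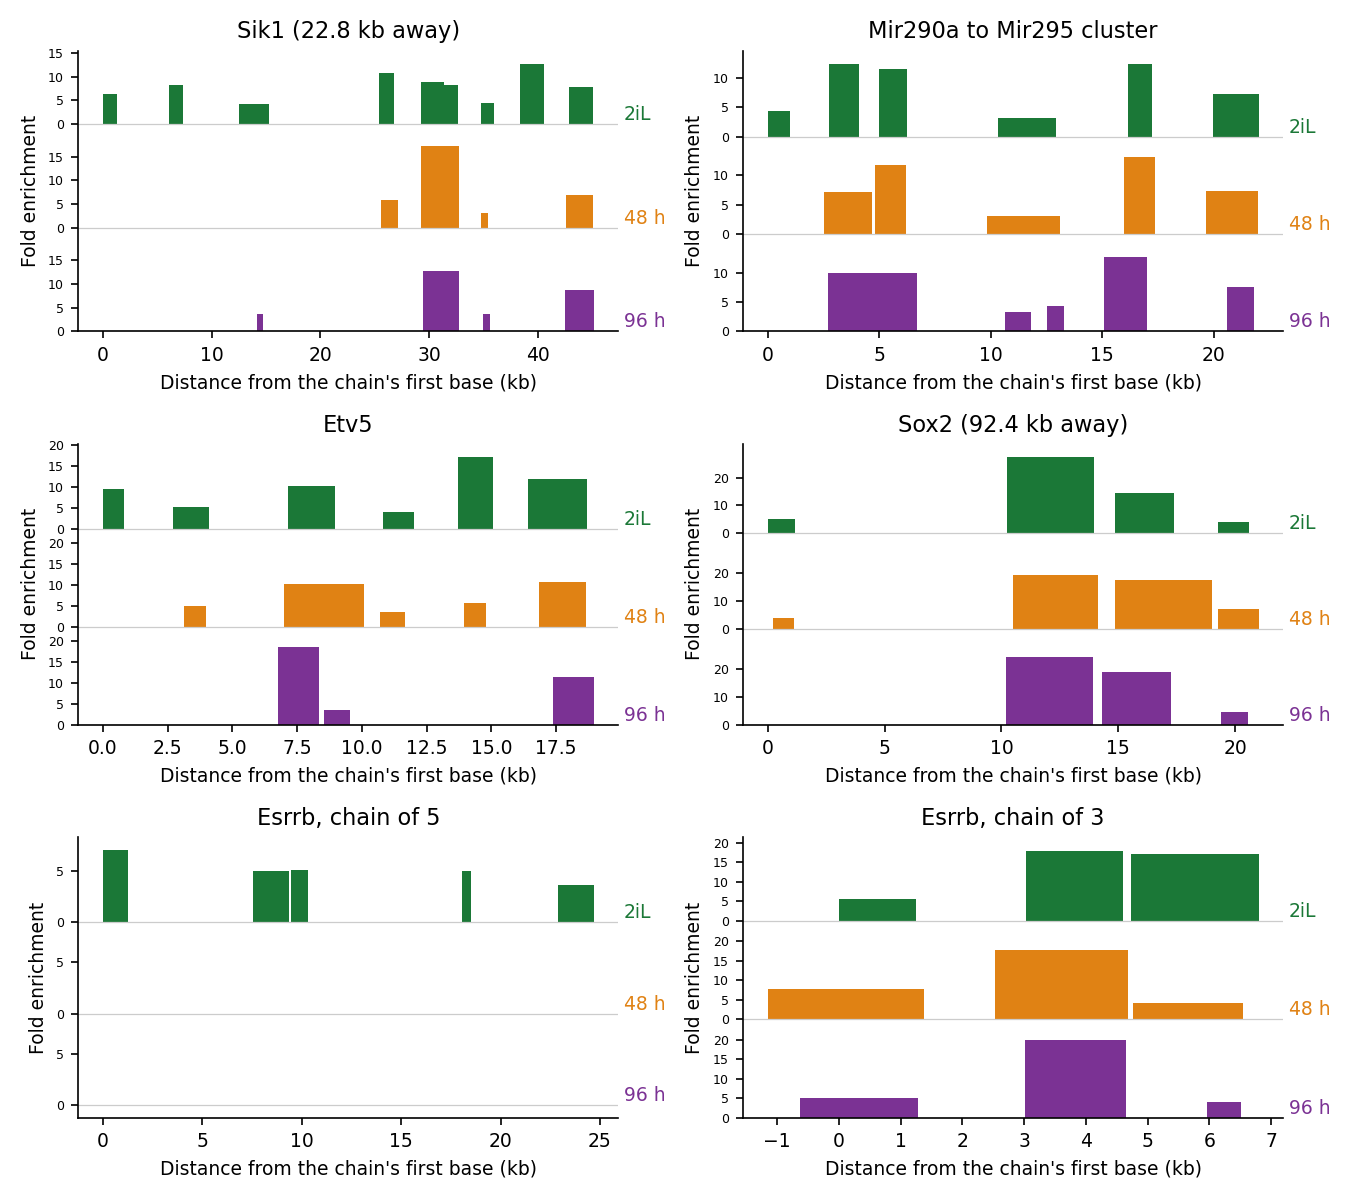
Called ESRRB regions along 6 chains, drawn to scale in kb from the first base of the chain, with bar height the fold enrichment over each library's own background, for 2iL (green), 48 h (orange) and 96 h (purple). In the Esrrb chain of 5 no later region appears, while in the Esrrb chain of 3 and at the Sox2 chain the strongest 2iL regions have a later region at the same place.

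At Etv5, an ETS factor gene that responds to FGF and ERK signals, 6 regions lay inside the gene (chromosome 16, 22394991 to 22413666), 5 of them called at 48 h and 2 at 96 h. The strongest had a fold of 17.0 in 2iL and 5.63 at 48 h and was not called at 96 h. The third had folds of 10.1, 10.2 and 18.5, and the last 11.8, 10.6 and 11.3. At Fgf4, the growth factor gene that drives exit from the naive state, 5 of 6 regions were called at 48 h and 3 at 96 h. The strongest of these had folds of 10.4, 5.88 and 5.20.

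The other large chains differed in how many of their regions were called later. At Pdpn, a membrane glycoprotein gene, 6 of 7 regions were called at 48 h, then 4 at 96 h, and the fourth region had folds of 5.06, 10.4 and 6.28. Beside Wasf2, an actin regulator gene, 5 of 7 were called at both times. At Hspb8, a small heat shock protein gene, 4 of 7 and 3 of 7 were called, and its strongest region had folds of 21.0, 9.40 and 7.00. Beside Fblim1, a cell adhesion gene, all 6 were called at 48 h, then 5 at 96 h. At Sdc4, which encodes the proteoglycan syndecan-4, all 6 were called at 48 h, then 3 at 96 h. At Hk1, the gene of the glycolytic enzyme hexokinase, 4 and 2 of 6 were called, and beside 1700001O22Rik 5 and 3 of 6. The chain inside Arhgef10l, a nucleotide exchange factor gene, kept 1 of 6 at 48 h and none at 96 h, although its strongest region had a 2iL fold of 17.7.

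The highest summed fold after the Sik1 chain, 63.6 over 5 regions, was at Tnfrsf19, a receptor gene of the TNF family (chromosome 14, 60932907 to 60963897). Its strongest region had folds of 30.7, 18.2 and 20.5. A chain of 5 regions 282.7 kb from the nearest gene, Grin2a, had a summed fold of 56.3, and its last region had folds of 21.2, 16.7 and 22.8. At Nrip1, a nuclear receptor corepressor gene, 3 regions had 2iL folds of 39.4, 4.99 and 10.2. The third of them was called at neither later time, and the second was called at 48 h with a fold of 7.06. The first had folds of 32.8 at 48 h and 36.2 at 96 h.

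Of the 189 chains of 4 or more regions, 5 had every region called at both later times. Among them were chains of 4 at Gabrp, at Rec114 and at Elovl6, a fatty acid elongase gene, and 113.3 kb from Med13l, a Mediator subunit gene. In the Med13l chain 2 later regions covered the 4 regions of 2iL, with folds of 10.2 and 16.9 at 48 h against at most 9.33 in 2iL. At Rec114 the strongest region had folds of 15.8, 15.2 and 7.31.

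Another 11 chains of 4 or more regions had none called later. Beside the Esrrb chain, these included the chain of 5 at Amotl1, a cell junction gene, with 2iL folds of 2.96 to 5.72, and chains of 4 at Ttll8, Ubap2 and Relb. The chain inside Relb, an NF-kappaB subunit gene, had folds of 7.82, 4.41, 4.36 and 3.37. The highest 2iL fold in these 5 chains was 7.82, at Relb.

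A chain within 50 kb was found for 1348 of the 21887 protein-coding genes (6.16%), and gene groups can be read against that share. These lists were drawn up with earlier results on these ESRRB regions known, and some genes are in more than 1 list. Of 20 naive pluripotency genes 13 (65%) had a chain, of 15 core pluripotency genes 7 (46.7%), of 18 genes listed as chromatin regulators 6 (33.3%), with the kinase gene Sik1 among them, and of 18 nuclear receptors and coregulators 6 (33.3%). Nodal and BMP genes had 4 of 15, energy metabolism genes 5 of 20, formative genes 4 of 20, LIF, WNT and ERK signalling genes 5 of 27 and trophoblast genes 2 of 13. None of 18 germ layer transcription factors and none of 16 tissue control genes had one.

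The naive genes with a chain had 15 chains with 55 regions, of which 35 (63.6%) were called at 48 h and 27 (49.1%) at 96 h. Of all chain regions 54.8% and 38.2% were called, and of all 2iL regions 50.7% and 35%. The regions were not matched on fold or width. At Zfp42, a zinc finger gene used as a marker of these cells, all 4 regions were called at 48 h, then 3 at 96 h, and the second had folds of 10.8, 11.7 and 17.4. At Nr0b1, an orphan nuclear receptor gene, 4 were called at 48 h, then 2 at 96 h, and the strongest had folds of 15.0, 18.5 and 3.94. Dppa5a had a chain of 5 with 4 and 3 called, and Tfcp2l1, which encodes a target factor of LIF signals, a chain of 4 with 3 and 2. The chain of 3 at Nanog, a homeobox factor gene of the naive network, had 1 region called at 48 h and 3 at 96 h. Its 2iL folds of 10.5 and 8.76 had no region at 48 h and folds of 8.76 and 4.67 at 96 h. A second chain, 47.1 kb from Nanog and nearer to the glucose transporter gene Slc2a3, had all 3 regions called at both times.

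Other naive genes had chains of 3. At Tet2, a DNA demethylation enzyme gene, 2 regions were called at 48 h, both covered by 1 later region with a fold of 8.46, and none at 96 h. In the chain 11.6 kb from Klf2, a Krüppel-like factor gene, the strongest region had folds of 15.6, 16.4 and 12.3. The other 2 were called at neither time, and Eps15l1 lay nearer to this chain than Klf2. All 3 regions near Nr5a2, a nuclear receptor gene, were called at neither time, with 2iL folds of 4.26 to 7.51. Prdm14 had 2 regions called at 48 h, as did the chain 24.6 kb from Klf5, and the chain 24.8 kb from Tbx3 had 1. Klf4, Dppa3, Gbx2, Tcl1, Jam2, Socs3 and Stat3 had no chain within 50 kb.

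The core genes had 7 chains with 24 regions, of which 21 (87.5%) were called at 48 h and 14 (58.3%) at 96 h. Of all chain regions 54.8% and 38.2% were called, and fold and width were not matched here either. The chain of 5 (chromosome 17, 35502075 to 35515243) over Pou5f1, which encodes OCT4, had 4 regions called at 48 h and 1 at 96 h. Its first region, the strongest at 8.69, was called at neither time. The 3 regions at Tdgf1, a Nodal coreceptor gene, were called at both times, with folds of up to 8.66 in 2iL and 7.49 at 48 h. Sall4, a zinc finger factor gene, had 4 of 4 and 3 of 4 called, Utf1 and Mycn each 3 of 3 and 2 of 3, and Sall1 2 and 1 of 3. Near Tet1 the strongest region had folds of 15.8 in 2iL and 19.9 at 48 h, and 13.5 is the fold at 96 h for both this region and the next. Besides Sox2, no chain lay within 50 kb of Foxd3, Zfp281, Dppa4, Dppa2, Lin28a, Rif1 or Trim28.

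Among chromatin regulators, Jarid2, a subunit of the Polycomb complex PRC2, had 2 chains. In the chain of 6 at the gene (chromosome 13, 44704867 to 44747576) all 6 regions were called at 48 h, then 4 at 96 h, and the fifth had folds of 9.11, 8.61 and 12.05. The chain of 3 lying 42.2 kb away had all regions called at both times. Near Suz12, another PRC2 subunit gene, 3 of 3 were called at 48 h and 1 at 96 h, with folds of 9.78, 11.0 and 11.2 for the strongest. In the receptor list, Ncoa3, a coactivator gene that ESRRB is known to work with, had 3 of 3 called at both times, at 2iL folds of 7.58 to 10.5.

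The signalling and lineage lists held few other chains. Spry2, a feedback inhibitor gene of ERK signalling, had a chain of 4 with 3 regions called at 48 h and all 4 at 96 h, the third at a fold of 9.10 in 2iL and 4.07 at 96 h only. Bmp7, a BMP ligand gene, had 3 of 3 and 2 of 3 called, and Smad6, an inhibitor of BMP signals, 1 and none. The chains 38.9 kb from Pim1 and 47.3 kb from Id3, the second nearer to E2f2, had 2 of 3 called at 48 h. The 2iL chain 31.9 kb from Otx2, the leading formative factor gene, had 2 of 3 called at 48 h, then 1 at 96 h. A nearer chain in the 96 h list is given in the last section. At the neighbours Zic2 and Zic5 1 region was called at 48 h and none at 96 h. The chain 13.3 kb from Hand1, a trophoblast factor gene, overlapped Sap30l and was called at neither time, with 2iL folds of 5.36 to 9.66. In the chain 15.2 kb from Tfap2c the regions with folds of 10.6 and 20.7 were called at both times. In energy metabolism, the chain over Atp5b, an ATP synthase gene, had 2 of 3 and 1 of 3 called. At Sdhc 2 and 1 were called, and in the Coq10a chain, 2.55 kb from Cs, 1 and none.

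The later libraries also held chains of their own when joined by the same distance. In the 48 h list 1113 of 10970 regions (10.1%) formed 319 chains, and in the 96 h list 502 of 7018 (7.15%) formed 152, against 13.98% of regions in 2iL. A shorter list gives fewer close neighbours, so these shares do not compare lists of equal length. Of the 48 h chains 167 (52.4%) overlapped a 2iL chain, and 168 of the 2iL chains (30.6%) were overlapped. Of the 96 h chains 89 (58.6%) did, and 89 of the 2iL chains (16.2%) were overlapped. Chains in all 3 lists overlapped at 67 of the 549 2iL chains (12.2%). Inside the spans of 2iL chains, 50 regions at 48 h and 33 at 96 h overlapped no 2iL region, in 63 chains in all. The share of such regions over the whole later lists is not given here, so these counts are only a description.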

How the data were processed

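Peak lists of 1 ESRRB library each in 2iL and at 48 h and 96 h were used. Per the submitters' processing notes, bcl2fastq 2.20.0.422, BWA, SAMtools, Picard and MACS2 were used with build mm10; their roles and thresholds, and how inputs were used, are not stated in the labels used here. Each deposited line is a summit in an interval. The authors deposited a fold enrichment (a ratio over local background), a p-value and a q-value as −log10, a browser score and a summit offset. Unique intervals were regions and took the values of their highest-fold summit, and p and score were not used further.

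The chain members and gene lists were chosen with earlier results of these data known. Named chains were the 12 largest, the 6 of highest summed fold, and the 6 largest of 4 or more regions with all or with no regions called later. Named genes were up to 8 per list with a chain within 50 kb, by the number of regions, and naive and core genes without one. Other genes (Sox2, the remaining naive genes with a chain, the microRNA clusters, the promoter examples and hosts of 2 chains) were chosen after their values were seen. Chains and overlaps were computed in Python 3.11.15 (pandas 2.3.3, scipy 1.17.1), tested on made-up layouts, and overlap counts matched bedtools 2.31.1. Differences averaged over quintiles carry normal-approximation 95% intervals for counting error, with regions taken as independent. Genes and sequences came from RefSeq GRCm38.p6 (mm10), and 180 of 180 listed genes matched. A few items that the naming rule selected are not reported here. Library depth is unknown. With 1 library per condition no test was made. No paired analysis could be made.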

Additional observations from a re-analysis of the deposited data

How the results depend on the processing

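No paired analysis was possible because each condition had 1 library. Of 74 alternative values, 41 stayed within 1.5 times a count or inside the interval of a share or difference, and 33 moved beyond that. Counts and shares cannot change sign, so only the 18 alternatives of the difference could change direction, and none did. The gap sets the number of members: at 5 kb there were 659 chain regions in 204 chains near 492 genes, and at 25 kb 3700 in 966 near 2599. Within 10 kb 625 genes had a chain, and 431 were overlapped by one. With a 5 kb gap 16.7% of chains had no region called later and 12.7% had 3 or more called at 96 h. Merging 2iL regions up to 1 kb apart left 1356 chain regions in 397 chains near 1024 genes. Of these regions 57.1% were called at 48 h.

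With an overlap of 50% of both regions, 45.8% and 29.7% of chain regions were called at 48 h and 96 h, differences from other regions were 1.88 and 0.439 points, 1.46% of chains were called whole at both times, 14.2% not at all, and 18.6% and 6.92% kept 3 regions. With lists of equal length, 59.2% and 53.1% of chain regions were called, 16.0% of chains not at all, and 16.9% kept 3 at 48 h. In chains of 5 or more, 59.2% and 43.2% of regions were called, the differences were 7.67 and 6.66 points, 1.64% of chains were called whole, 3.28% not at all, and 60.7% and 44.3% kept 3. These shares of chains depend on chain size by construction. A chain of 3 keeps 3 only if all its regions are called, and a larger chain is less easily called whole or missed whole. In quintiles of width the differences were 1.07 and 0.159 points. The difference kept its sign in 18 of 18 alternatives, and its interval reached 0 in 7. Equal-length shares count only 2iL chain regions in the shortened list; chain counts used all regions of a chain. The causes were not tested.

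Depth is unknown: regions under the calling threshold are in no list, and 1 library per condition gives no replicate error.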

Other observations

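Later libraries held chains where 2iL had none, which no comparison above describes. Of the 319 chains at 48 h, 152 overlapped no 2iL chain, and 19 of these held no 2iL region at all. The largest was a chain of 8 regions over Kazn, a cell junction gene (chromosome 4, 142205454 to 142250961), with folds of up to 9.29 and 5 regions of 2iL inside it that formed no chain. Chains of 7 and 6 regions at Mkrn1 and Dgkz overlapped 2 and 1 regions of 2iL. A chain of 4 lay 19.2 kb from Sall1 (chromosome 8, 89063353 to 89079659), with a highest fold of 22.4, in addition to the 2iL chain near that gene.

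At 96 h, 63 of 152 chains overlapped no 2iL chain, and 2 of these held no 2iL region. The strongest of them with 4 regions was at Ldhb, a lactate dehydrogenase gene (chromosome 6, 142507095 to 142513562), with a highest fold of 24.9 and 2 regions of 2iL. Another was inside Fgfr2, an FGF receptor gene (chromosome 7, 130251113 to 130262618), with 4 regions, folds of up to 6.46 and 1 region of 2iL. The 48 h list already had a chain of 3 regions at this place (130251484 to 130262716), with folds of up to 13.3. A 96 h chain of 3 regions lay 0.778 kb from Otx2 (chromosome 14, 48652105 to 48656002), with a highest fold of 16.0 and 2 regions of 2iL. The genes in this section were picked with their values in view.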
